A study of Mus musculus with 2 samples.

Results

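The 48 genes described here encode proteins that hepatic stellate cells make or that build the extracellular matrix of the liver. They were listed by name, from collagens, laminins and proteoglycans to stellate cell markers, matrix enzymes, and the PDGF and TGF-beta growth factors, and all 48 were found among the 22367 protein-coding genes of the annotation. GATA4 occupied sites (OS) were assigned to a gene when their midpoint lay in the gene body or within 10 kb of it, so an OS between neighbouring genes can belong to several. The remaining 22319 protein-coding genes served as background.

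GATA4 ChIP-seq had been performed on whole liver of mice aged 2 to 3 months per the labels, on a mixed C57BL/6 x Sv129 background, with the antibody C-20. Input DNA of the same kind of liver, without immunoprecipitation, was the control. The methods of the study give a slightly older age range than the labels. The labels give neither a deleted allele nor a treatment for either sample. The labels list 1 ChIP sample and 1 input sample, each replicate of the study combined livers of more than 1 mouse, and the deposited peak lists cover both replicates together, so no value has a replicate error. Whole liver mixes hepatocytes with endothelial, stellate and Kupffer cells, and a peak list cannot tell in which of these cells a site was occupied, nor does it hold expression against which the cell type could be checked.

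Stellate cells lie between the hepatocytes and the sinusoidal endothelium, store vitamin A in the healthy liver, and on injury turn into contractile cells that deposit fibrillar collagen. The healthy sinusoid has little fibrillar collagen and only a thin, discontinuous set of basement membrane proteins such as collagen IV, laminins and nidogen. GATA4 is a zinc finger transcription factor that binds the sequence GATA with preferred flanking bases, written WGATAR, where W is A or T and R is A or G.

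A common OS, that is, a peak found by both peak callers SPP and MACS2, was assigned to 10 of the 48 genes (20.8%, Wilson 95% interval 11.7 to 34.3). In the background, 13.6% of genes held one. The 10 genes were Col4a1, Col15a1, Col18a1, Nid1, Lama4, Fn1, Timp2, Timp3, Mmp14 and Cygb, with 14 different OS between them. The other 38 genes had none, among them all 5 fibrillar collagens, all 3 proteoglycans, all 6 PDGF and TGF-beta growth factors and receptors, and both contractile proteins. These groups are small beside a background share of 13.6%, so their lack of an OS is a description and does not set them apart. Only Col4a1 with 4 OS and Mmp14 with 2 held more than 1. At least 2 OS were thus seen at 2 of 48 genes (4.17%) against 3.01% of the background, and at least 4 at 1 gene (2.08%) against 0.318%. The SPP list alone gave the same count of 10 genes, beside 14.5% of the background, whereas the MACS2 list added 4 genes for a total of 14 (29.2%), beside 17.3% of the background.

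**Figure D1:**
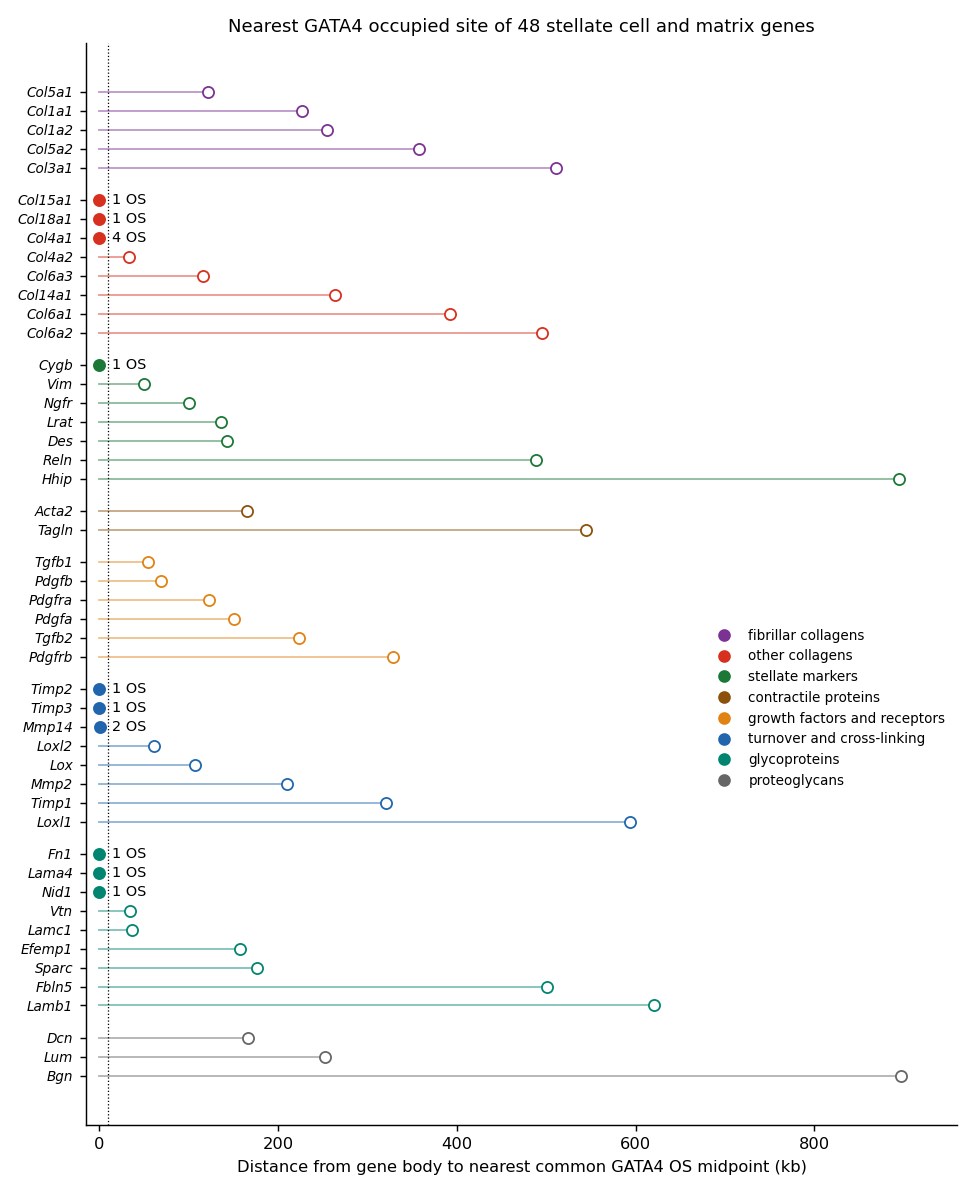
Distance in kb from the gene body to the midpoint of the nearest common GATA4 OS for each of the 48 genes, coloured by group. Filled points are genes with an OS within 10 kb (dotted line), with the number of OS beside them, and open points are the 38 genes without, whose nearest OS lay 33.3 to 897 kb away.

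The OS with the lowest list number in each group of genes that held one is shown in full, and for the collagens those of both Col15a1 and Col4a1, as examples of each group, together with that of Col18a1, the only one of the 14 without any GATA core of 5 bases. Sequences are from the mm9 reference, 5′ to 3′, and capitals mark WGATAR matches on either strand (TTATCT is AGATAA read on the other strand), or the 5-base core TGATA where there is no WGATAR. All 6 lie in introns and contain no exon base.
Col15a1, OS 68, chr4:47252061-47252327, plus strand: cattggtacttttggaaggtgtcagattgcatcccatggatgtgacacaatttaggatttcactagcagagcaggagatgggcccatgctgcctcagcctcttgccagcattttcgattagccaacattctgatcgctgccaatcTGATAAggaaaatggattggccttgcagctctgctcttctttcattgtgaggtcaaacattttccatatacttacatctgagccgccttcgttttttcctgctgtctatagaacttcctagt
Nid1, OS 123, chr13:13556324-13556567, plus strand: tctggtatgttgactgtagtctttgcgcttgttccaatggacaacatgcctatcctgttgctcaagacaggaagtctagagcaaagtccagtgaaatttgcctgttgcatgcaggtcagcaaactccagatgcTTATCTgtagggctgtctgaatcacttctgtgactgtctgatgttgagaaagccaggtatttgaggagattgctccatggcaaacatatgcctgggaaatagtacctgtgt
Col4a1, OS 521, chr8:11258674-11258888, plus strand: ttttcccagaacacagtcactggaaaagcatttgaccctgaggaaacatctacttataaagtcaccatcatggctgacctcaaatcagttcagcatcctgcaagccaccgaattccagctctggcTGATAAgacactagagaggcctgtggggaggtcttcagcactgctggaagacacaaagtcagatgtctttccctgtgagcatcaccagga
Col18a1, OS 1048, chr10:76581204-76581384, plus strand: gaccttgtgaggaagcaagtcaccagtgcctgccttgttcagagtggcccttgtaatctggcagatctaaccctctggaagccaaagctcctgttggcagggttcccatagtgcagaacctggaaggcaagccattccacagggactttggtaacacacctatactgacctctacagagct
Timp2, OS 1063, chr11:118208859-118208979, plus strand: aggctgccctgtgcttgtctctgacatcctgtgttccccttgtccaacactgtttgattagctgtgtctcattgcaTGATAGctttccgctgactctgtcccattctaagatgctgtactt
Cygb, OS 3302, chr11:116510232-116510335, plus strand: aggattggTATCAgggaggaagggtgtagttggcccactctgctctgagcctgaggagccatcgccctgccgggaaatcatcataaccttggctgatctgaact

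The collagen IV, XV and XVIII genes held 6 of the 14 OS. Col4a1 encodes a chain of collagen IV, the network collagen of basement membranes, and lies on chromosome 8 from 11198423 to 11312826 on the minus strand. Its 4 OS stood 33.4, 40.4, 54 and 63.3 kb downstream of its transcription start site (TSS), the nearer pair in intron 1 and the farther pair in intron 2, with gaps of 7.04, 13.6 and 9.23 kb from one to the next. Their numbers in the common list were 3183, 3608, 521 and 2193 of 4409, where the numbering follows the order of the file. Number 521 was thus the foremost of the 4, and the MACS2 peak over it, number 426, was also the foremost of the 4 in its list. Col4a2 encodes the partner chain and is transcribed from the same stretch of DNA in the opposite direction, the bodies of both genes overlapping by 22 bp. It had no OS of its own, and the nearest one was number 3183 in intron 1 of Col4a1, 33.3 kb from its gene body. All 4 OS were slightly nearer to the TSS of Col4a2, at 33347 to 63258 bp, than to that of Col4a1, at 33368 to 63279 bp. Their assignment to Col4a1 and not to Col4a2 thus rests on the gene body.

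Col15a1, which encodes collagen XV of the zone beneath basement membranes, held the foremost OS of all 48 genes. This OS was number 68 of the common list and number 187 of the MACS2 list, 267 bp wide, and lay in intron 2 at 31.2 kb from the TSS. Col18a1 encodes collagen XVIII, whose C-terminal fragment is endostatin. Its OS was number 1048, 181 bp wide, in intron 2 of the longest transcript at 48 kb from that start, but 4.60 kb upstream of the start of shorter transcripts of the same gene. The 5 fibrillar collagen genes had no peak of any list within 10 kb. Of background genes, 13.6% held a common OS, 14.5% an SPP peak and 17.3% a MACS2 peak. Their nearest common OS lay 122 kb (Col5a1), 226 kb (Col1a1), 255 kb (Col1a2), 357 kb (Col5a2) and 511 kb (Col3a1) away. Collagen VI, which forms beaded filaments, was likewise without an OS at Col6a1, Col6a2 and Col6a3, as was Col14a1, with nearest distances from 116 to 495 kb.

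Among the 9 matrix glycoproteins, Nid1, Fn1 and Lama4 each held 1 OS. Nid1 encodes nidogen, which links laminin to collagen IV, and its OS in intron 2, 26.6 kb from the TSS, was number 123 of the common list. The MACS2 peak at that place was number 74, the foremost MACS2 position of all 14. Fn1 encodes fibronectin, a plasma protein made by hepatocytes and a matrix protein made by mesenchymal cells. Its OS, number 1227, lay in intron 12 at 18.4 kb from the TSS. The TSS of another gene, Apol7d, was slightly nearer to that OS, at 18028 bp. Lama4 encodes the laminin alpha chain of vascular basement membranes and carried OS number 2830 in intron 1, 4.68 kb from the TSS. The other laminin chains Lamb1 and Lamc1 had no OS within 10 kb, with the nearest at 621 and 36.5 kb. Vtn, Sparc, Fbln5 and Efemp1 had none either. The nearest OS of Vtn, the gene of the plasma protein vitronectin, was 34.1 kb downstream and only 31 bp from the TSS of another gene, Ift20, at number 196 of the list.

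Of the 8 genes of matrix turnover and cross-linking, 3 held an OS. Timp2 and Timp3 encode inhibitors of matrix metalloproteinases. The Timp2 OS, number 1063 and 121 bp wide, lay in intron 1 at 7.90 kb from the TSS, and that of Timp3, number 3233, in intron 1 at 31.6 kb. The latter also lies inside Syn3, a synapsin gene that spans Timp3. The Timp2 OS was nearer to the TSS of another gene, BC100451, at 5105 bp. Mmp14 encodes a membrane-bound metalloproteinase that activates pro-MMP2. Its OS number 2565 was 744 bp upstream of the TSS and the only one of the 14 within 1 kb of the TSS of a listed gene. OS number 2447, 4.74 kb upstream of Mmp14, was 48 bp from the TSS of Mrpl52, a mitochondrial ribosomal protein gene, so that its assignment to Mmp14 rests on the 10 kb window. Timp1, Mmp2, Lox, Loxl1 and Loxl2 had no OS, with nearest distances of 60.9 to 593 kb.

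Of 7 genes used as stellate markers, 1 held an OS, namely Cygb, the gene of cytoglobin. That count is near the background share of 13.6%. The Cygb OS was number 3302, 104 bp wide, in intron 3 at 5.34 kb from the TSS, and 4886 bp from the TSS of the neighbouring gene Gm11744. Lrat, which encodes the enzyme that esterifies retinol for storage, was 136 kb from the nearest OS. Distances were 489 kb for Reln, 143 kb for Des, 895 kb for Hhip, 101 kb for Ngfr and 50.2 kb for Vim. The growth factor genes Pdgfa, Pdgfb, Tgfb1 and Tgfb2 and the receptor genes Pdgfra and Pdgfrb were 55.1 to 328 kb from an OS. For the contractile genes, Acta2 lay 165 kb and Tagln 544 kb away, and for the proteoglycans Dcn, Lum and Bgn the values were 166, 252 and 897 kb.

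**Figure D2:**
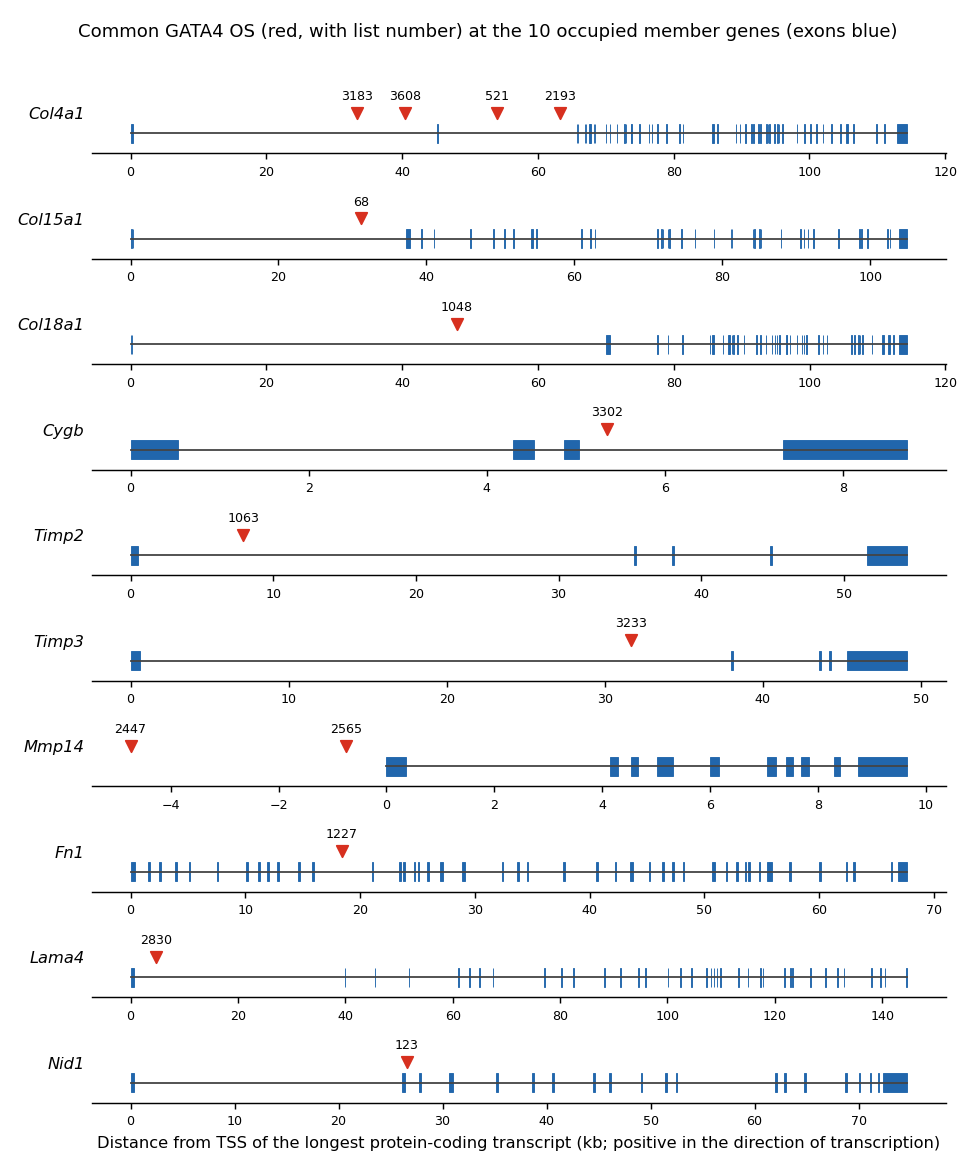
Maps of the 10 genes with a common GATA4 OS, drawn to scale in kb from the TSS of the longest protein-coding transcript, with exons as blue boxes and OS midpoints as red triangles under their list numbers. Of the 14 OS, 12 stand in introns and 2 upstream of Mmp14.

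Genes of the basement membrane and its adjoining zone made up 5 of the 10 genes and 8 of the 14 OS. Col4a1 alone held 4 of these 8 OS. This set (Col4a1, Col4a2, Col15a1, Col18a1, Lama4, Lamb1, Lamc1 and Nid1) was put together after the values were seen, so its count of 5 of 8 is a description. The other 40 genes had an OS in 5 cases. The sets also differ in size, since the median gene was 114 kb long among the 8 and 25.8 kb among the 40. In the background, 13.6% of all genes and 27.9% of those over 100 kb held an OS. Of 9 laminin and nidogen genes outside the list, 2 held one (22.2%). Of the collagen IV genes outside the list, all over 100 kb, Col4a4 held 1 OS (number 4050). Col4a3, Col4a5 and Col4a6 held none.

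Gene length moved with the presence of an OS in the background as well. A common OS was assigned to 7.34% of other genes under 10 kb, 13% of those of 10 to 30 kb, 18.9% of those of 30 to 100 kb and 27.9% of those over 100 kb. The listed genes were longer than the rest, with a median of 38.4 kb against 15.4 kb. Weighting the background by the length classes of the 48 genes gave 17.1%, or 8.22 genes where 10 were found. By class, 2 of 8 genes under 10 kb, 0 of 14 genes of 10 to 30 kb, 4 of 16 genes of 30 to 100 kb and 4 of 10 genes over 100 kb held an OS. In each class the Wilson interval of the listed genes was wide, from 16.8 to 68.7% for the longest, and covered the background share in every class. Per length of window, the 48 genes held 3.55 OS per Mb over 3.94 Mb, and the other genes 2.54 per Mb. The first value rests on 14 OS, of which Col4a1 alone held 4, and has no interval.

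**Figure D3:**
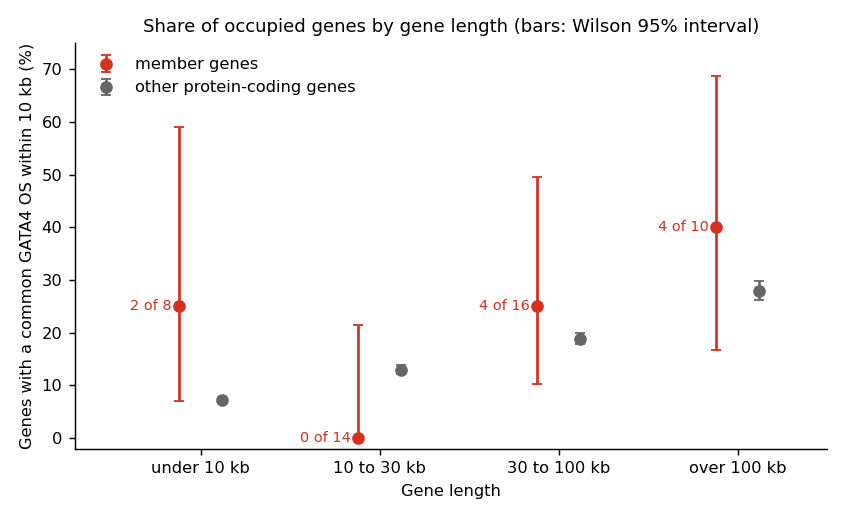
Share of genes with a common GATA4 OS within 10 kb (y axis, percent) by gene length (x axis) for the listed genes (red, with counts) and all other protein-coding genes (grey), with Wilson 95% intervals that cover counting error only. The share rises with length in the background, from 7.34 to 27.9%, and each red interval covers the grey point.

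The 14 OS were found across the whole common list. Their numbers ran from 68 to 3608 with a median of 2320 (95% interval from order statistics 521 to 3233), and the 3168 OS of other genes had a median of 2282. Among the leading 1000 of the list were 3 of the 14 (21.4%) and 21.8% of the OS of other genes. All scores in the files equal 1000, so the number is the only order that they give, and they do not state what it follows. Col15a1, Nid1 and the foremost Col4a1 OS stood among the leading 1000 of the common and of the MACS2 list. The numbers of both lists were farthest apart for Fn1, at 1227 in the common list and 3281 in the MACS2 list, for Lama4, at 2830 and 4572, and for the proximal Mmp14 OS, at 2565 and 1048.

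**Figure D4:**
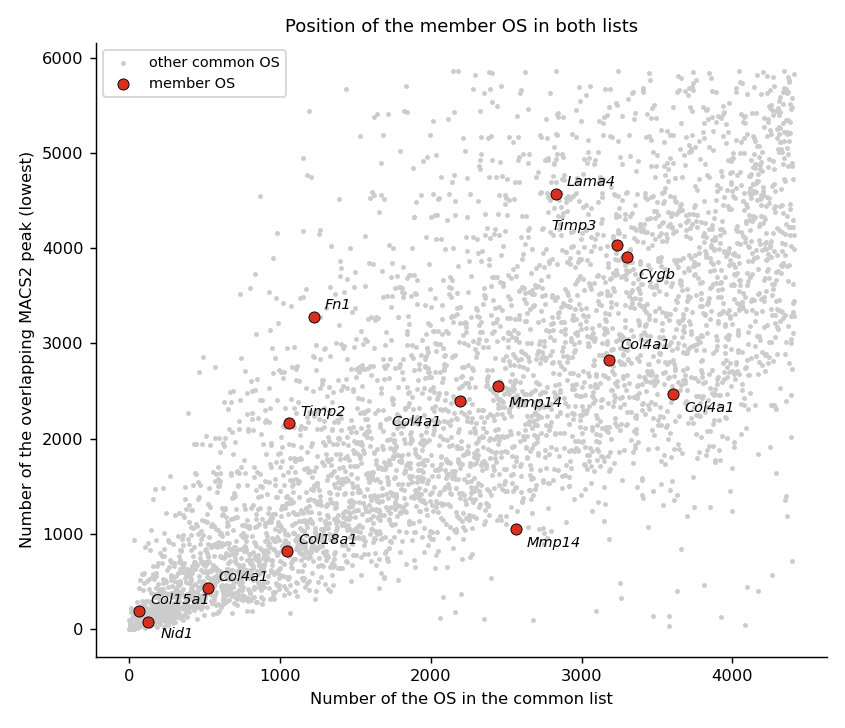
Number of each OS in the common list (x axis) against the lowest number of the MACS2 peaks that overlap it (y axis), with the 14 OS of the listed genes in red and all other common OS in grey. The red points run from the head of both lists (Col15a1 and Nid1) to the later part (Lama4, Timp3, Cygb).

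By position, 12 of the 14 OS (85.7%, Wilson 95% interval 60.1 to 96) lay in introns and more than 1 kb from any protein-coding TSS, 5 in an intron 1 and 7 in a later intron. The OS of other genes were intronic in 57.4% of cases. None of the 14 lay in an exon or in a flank beyond 1 kb of a TSS, where 2.97% and 19.1% of the OS of other genes lay. A TSS within 1 kb was found for 2 of the 14 and for 20.5% of the OS of other genes. The median distance to the nearest protein-coding TSS was 22302 bp (95% interval 4603 to 40382) for the 14 and 8609 bp for the OS of other genes. The 10 kb window of another gene held 5 of the 14 as well. These shares were not tested against each other, because the genes were picked by name and the OS of 1 gene share its sequence.

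At least 1 WGATAR was found for 10 of the 14 (71.4%, Wilson 95% interval 45.4 to 88.3), with 14 matches in all. Over all 4409 common OS the share was 82.9%, within that interval. As a measure of the motif in nearby DNA, a window as wide as each OS was read 5000 bp to its right, and it held WGATAR for 4 of the 14 and for 31.9% of all OS. A single match was found in 7 OS, 2 matches in those of Fn1 and in Col4a1 number 3608, and 3 in that of Lama4. The closest match of each of the 10 OS lay 9 to 52 bp from the midpoint, with a median of 17.5 bp. AGATAA accounted for 7 of the 14 matches (50%, and 44.6% of matches in all common OS). The form AGATAG had 3 matches (21.4%, and 17.5% in all common OS). TGATAA had 2 (14.3%, and 26.8%), at Col15a1 and at Col4a1 number 521. TGATAG had the remaining 2 (14.3%, and 11%), at Timp2 and Col4a1 number 3608. The 4 OS without WGATAR were those of Col18a1 and Cygb, Mmp14 number 2447 and Col4a1 number 3183, and all of these but Col18a1 still held a core of 5 bases, WGATA or GATAR. Both the 14 and all common OS held such a core in 92.9% of cases.

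The match nearest the midpoint is shown for each OS with a GATA core, in the direction of the motif and with 18 bases on either side, to allow the flanks to be compared. Capitals mark the match, which has 6 bases for WGATAR and 5 where only the shorter core was present.
Col15a1, OS 68, chr4:47252188-47252229, plus strand: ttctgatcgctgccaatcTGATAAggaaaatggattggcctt
Nid1, OS 123, chr13:13556439-13556480, minus strand: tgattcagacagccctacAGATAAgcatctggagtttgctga
Col4a1, OS 521, chr8:11258781-11258822, plus strand: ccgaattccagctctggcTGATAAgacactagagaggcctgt
Timp2, OS 1063, chr11:118208917-118208958, plus strand: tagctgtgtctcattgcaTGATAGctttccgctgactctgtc
Fn1, OS 1227, chr1:71681378-71681419, plus strand: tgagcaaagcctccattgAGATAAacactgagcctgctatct
Col4a1, OS 2193, chr8:11249579-11249620, plus strand: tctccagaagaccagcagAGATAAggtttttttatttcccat
Mmp14, OS 2447, chr14:55045629-55045669, plus strand: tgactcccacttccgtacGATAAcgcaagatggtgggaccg
Mmp14, OS 2565, chr14:55049641-55049682, minus strand: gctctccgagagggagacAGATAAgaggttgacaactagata
Lama4, OS 2830, chr10:38689975-38690016, minus strand: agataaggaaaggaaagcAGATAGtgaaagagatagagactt
Col4a1, OS 3183, chr8:11279445-11279485, minus strand: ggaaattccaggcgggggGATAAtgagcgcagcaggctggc
Timp3, OS 3233, chr10:85794726-85794767, minus strand: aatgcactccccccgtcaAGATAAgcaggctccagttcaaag
Cygb, OS 3302, chr11:116510222-116510262, minus strand: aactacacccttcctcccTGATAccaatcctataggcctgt
Col4a1, OS 3608, chr8:11272445-11272486, minus strand: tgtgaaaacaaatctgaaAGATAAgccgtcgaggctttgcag

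**Figure D5:**
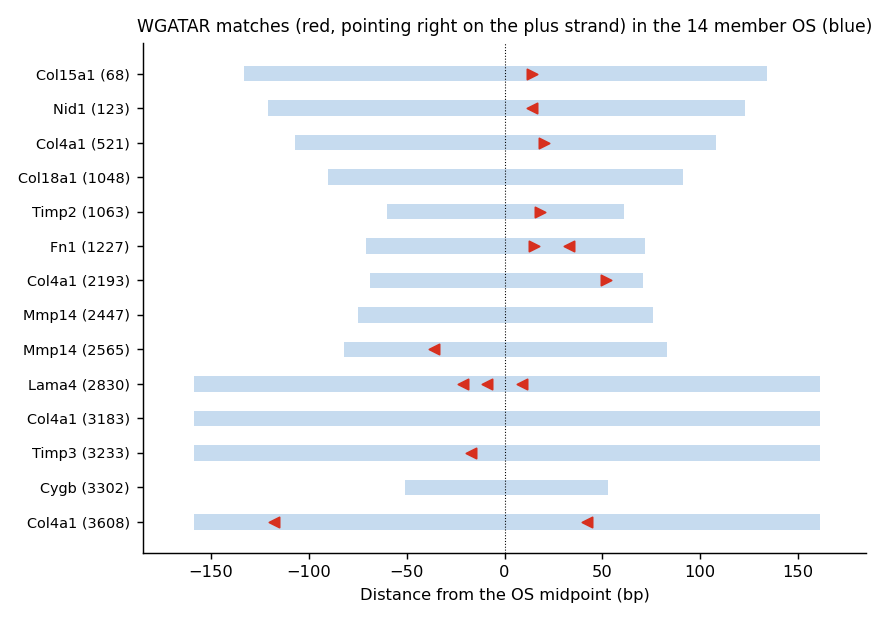
Width of each of the 14 OS (blue bars, bp from the midpoint) in the order of their list numbers, with WGATAR matches in red, pointing right on the plus strand and left on the minus strand. Of the 14 rows, 10 carry a match, most of them near the dotted midpoint, and the rows of Col18a1, Cygb, Mmp14 number 2447 and Col4a1 number 3183 carry none.

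In the Lama4 sequence, a further AGATAA and AGATAG stand on the same strand as the match shown, so that the 3 matches span 30 bp with a smallest step of 12 bp. The Fn1 matches were 18 bp apart on opposite strands, and those of Col4a1 number 3608 were 160 bp apart. Besides GATA, the sequences were searched on both strands for TGTTTAC of forkhead factors, AGGAAG of ETS factors, TGANTCA of AP-1 and CAAAGNNCA of HNF4. AGGAAG was held by 7 of the 14 OS (50%) and by 42.8% of all common OS. The other 3 were found in a single OS each, TGTTTAC at Lama4 and the other two both at Nid1, against 6.26%, 7.55% and 10.5% of all common OS.

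A MACS2 peak but no common OS was assigned to 4 listed genes. The MACS2 peak of Tagln, which encodes the actin-binding protein SM22, was number 4684 of 5867 (chr9:45740536-45741100), 3323 bp downstream of the TSS in intron 1, and held 3 WGATAR over 565 bp. That of Sparc, number 3741, lay in intron 1 at 2093 bp from the TSS and held 1. The peak of Bgn, number 4688, was 6843 bp upstream and held none. The peak near Tgfb1, number 5626, was 6316 bp upstream of Tgfb1 but 472 bp from the TSS of B9d2. At Timp3 a further MACS2 peak, number 3613, had no SPP counterpart. MACS2 peaks were wider than the common OS, with medians of 618 and 190 bp over the whole lists.

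Related genes outside the list were counted in the same way, to be read beside the 13.6% of background genes with a common OS. That share was 13% for background genes of 10 to 30 kb, 18.9% for 30 to 100 kb and 27.9% over 100 kb. Median lengths were 120 kb for the other collagens, 76.3 kb for the PDGF and TGF-beta genes and 60.5 kb for the laminins and nidogens. They were 18.6 kb for the stellate genes and 14.9 kb for the Mmp, Timp and Lox genes. The counts below were not adjusted for length. Of 30 other collagen genes, 5 held a common OS, namely Col13a1, Col23a1, Col25a1, Col27a1 and Col4a4, with 8 OS in all. The foremost was number 702 at Col13a1. Of 9 other laminin and nidogen genes, 2 held one (Lama3 and Lamb3), and of 24 other Mmp, Timp and Lox genes 3 did (Loxl3, Mmp11 and Mmp24). In the PDGF and TGF-beta pathways, 0 of 6 listed genes held an OS. So few genes cannot be set apart from the background share of 13.6%. Of 12 genes of these pathways outside the list, 5 held one (41.7%, Wilson interval 19.3 to 68). A difference between the listed and the other genes was not tested. Among those with one, Tgfbr3, the coreceptor betaglycan, held 3 OS, the foremost at number 625, and Tgfbr2, the type II receptor, 1 at number 886. Pdgfc and Ltbp4 held 1 each. Of 14 further genes tied to stellate cells, Colec11 and Gfap held 1 OS each, at numbers 4277 and 3915.

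The markers of the other cells of whole liver were counted beside these, and beside the 13.6% of background genes with a common OS. These lists were chosen with earlier results of these data known, so their counts are a description and no independent evidence. Of 10 sinusoidal and vascular endothelial markers, 9 held a common OS (90%, Wilson 95% interval 59.6 to 98.2), 21 OS in all. Lyve1 was the exception. Of 10 hepatocyte markers, 4 held one (Alb, Ttr, Hnf4a and F10). Of 10 Kupffer cell markers, 0 did, with a Wilson 95% upper limit of 27.8%, above the background share. Of 8 stellate markers, all of them among the 48 genes and with Pdgfrb counted here, 1 did (Cygb), or 12.5%, near the background share. Median gene lengths were 39.5 kb for endothelial, 13.5 kb for hepatocyte, 26.2 kb for Kupffer and 15.2 kb for stellate markers. The counts were not adjusted for length. How much each cell type contributed to the OS of the listed genes was not tested.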

How the data were processed

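GATA4 ChIP and input DNA libraries of whole mouse liver were made with 18 cycles of PCR and fragments of 250 to 450 bp, per the labels. Alignment by the authors used Bowtie 0.12.7 and the mm9 build, with reads of a single position retained. Peak calling with MACS2 2.0.10 and a modified SPP followed the IDR protocol over both replicates, and the lists were intersected (bedtools 2.16.1 is named; versions from the submitters' processing notes and the study's methods), giving the common list. The deposited score is 1000 for every peak and was not used. The files hold 4409 common, 4811 SPP and 5867 MACS2 peaks and no read counts, so the depth behind a single peak is unknown and no depth interval could be given. Input DNA entered only through the peak calls.

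Peaks were joined to GENCODE M1 protein-coding genes on the same build (NCBI Build 37), whose chromosomes contain every peak. The gene list, its groups and the comparison lists were chosen with earlier results of these data known. Since there is 1 ChIP sample and the genes were picked by name, no test was run, and p-values are not given. Shares have Wilson 95% intervals, and medians intervals from order statistics. Both cover counting error only. Distances are from peak midpoints to the gene body or to the TSS of the longest protein-coding transcript, unless stated. Regions were assigned over all protein-coding transcripts, with 1 kb either side of a TSS taken first. Motifs were matched exactly. Some items of the comparison lists are not reported here. Coordinates count from 1. Every listed gene with an OS was named by rule, and neighbouring genes outside the lists were named after the positions were seen. Full sequences are those of the foremost OS of each group, or of every gene of a group with several among the leading 1000, on chromosomes other than 18, and Col18a1 was added after its values were seen. There were 44 alternatives, for the window, the list, the part of a peak that counts, the transcripts and the motif. Python 3.11.15, numpy 2.4.6, scipy 1.17.1, pysam 0.24.0, matplotlib 3.10.9 and samtools 1.23.1 were used. On simulated data, 400 of 400 interval queries and 400 of 400 searches for a planted motif were correct.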

Additional observations from a re-analysis of the deposited data

How the results depend on the processing

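Of 44 alternatives, 31 left a value within 1.5 times the count, or within the 95% interval of the share or median, and 13 did not. The number of genes with a common OS stayed between 8 and 14 in 9 of 11 settings. It was 6 (7 OS) among the leading 50% of the common list, where Cygb, Lama4, Mmp14 and Timp3 had none. With a reciprocal overlap of at least 50% between both callers it was 4 (5 OS). There, Col18a1, Cygb, Fn1, Mmp14, Nid1 and Timp2 had none. An OS narrower than 50% of its MACS2 peak fails this rule by width alone, such as that of Nid1 (244 and 900 bp). The background moved in the same direction in both settings, to 7.21% and 3.32% of other genes. It was 11.3% with a window of 5 kb, 7.65% with the gene body alone, 27.7% with 50 kb, 14.5% with the SPP list, 17.3% with the MACS2 list and 10.9% with the single nearest TSS. Within 50 kb the listed genes came to 13 of 48, by Col4a2, Lamc1 and Vtn, while the background had 27.7%. Giving each OS to the single nearest TSS within 50 kb left Col4a1, Cygb, Fn1 and Timp2 without one and gave OS to Col4a2 and Lamc1 (8 genes). Accepting WGATA or GATAR raised the share of OS with a motif to 92.9%. The median list number and the intronic share stayed within their intervals in the 3 and 2 settings tried for them. No paired analysis was possible because there is 1 ChIP sample. With 14 OS, shares are known only to within wide intervals, and a site below the thresholds of the callers would not be listed.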

Other observations

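Some of the genes without an OS have one farther out. Beyond 10 kb, OS lay within 100 kb of 7 of the 38 genes. The OS nearest Lamc1, number 3953 (chr1:155216226-155216545), was intergenic, 36.5 kb upstream, held 2 WGATAR, and had Lamc1 as its nearest protein-coding TSS. That of Loxl2, number 3263, was 60.9 kb upstream and 7.18 kb from the TSS of Entpd4. The OS nearest Vim, number 2725, was 50.2 kb upstream in an intron of Trdmt1 and held 2 WGATAR. That of Tgfb1, number 3792, was 55.1 kb downstream within Axl, and that of Pdgfb, number 3009, was 68.6 kb upstream and 2 bp from the TSS of Rpl3. The nearest OS of 31 of the 38 genes (81.6%) lay beyond 100 kb, as did that of 69.4% of the other genes without an OS, and the median distances were 193 and 211 kb.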
